A study of Homo sapiens with 9 samples.

Results

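The cystine, glutathione and thioredoxin system was examined in MCF-10A cells, an immortalised breast epithelial line that does not form tumours. The set comprises 10 genes: SLC7A11, GCLC, GCLM, GSR, TXNRD1, HMOX1, NQO1, SRXN1, GPX2 and ABCC2. They were chosen by name, with earlier results of these data known. Each gene was taken from the row of the expression table that carried its symbol alone, and 9 of the 10 had such a row, among 22411 genes in all. SRXN1 shared its row with another gene and was not analysed here. The 9 arrays fell into 3 groups of 3: cells induced with doxycycline to express ERK2 D319N, cells induced to express ERK2 Y261A, and cells with the induced empty vector. All groups carried a Tet-on system, received doxycycline for 7 days and grew in horse serum with EGF, insulin, hydrocortisone and cholera toxin. D319N changes the common docking domain of the kinase ERK2 and Y261A the pocket that binds DEF motifs. The labels name no promoter of the transgene, do not say whether a line was 1 clone and do not mention removal of the cells' own ERK2. There was no group with wild-type ERK2 among the arrays analysed here, and the induced transcripts were not checked. No label states that the 3 replicates of a group were grown apart, so each p-value reflects the spread among these arrays only, and part of it may be technical.

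Glutathione is the main small thiol of the cell. SLC7A11 imports cystine, which is reduced to cysteine, and the ligase made of GCLC and GCLM joins cysteine to glutamate in the step that limits glutathione synthesis. GSR recycles oxidised glutathione and TXNRD1 recycles oxidised thioredoxin, both with NADPH. The transcription factor NRF2, which KEAP1 marks for degradation, induces many of these genes through antioxidant response elements, and ATF4 also induces SLC7A11 when amino acids are scarce.

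Promoter windows were available from RefSeq (GRCh38.p14, 250 bases before to 50 after a transcript start) for 7 of the 10 genes, with 8 windows because TXNRD1 has a pair of starts. The core of the antioxidant response element, TGACNNNGC, was searched on both strands and was found in 4 of these 8 windows, those of GCLM, TXNRD1 and GPX2, against 13.3% of all 35116 windows. The C/EBP-ATF element, TGATGNAAN, through which ATF4 acts, was found in 0 of the 8 windows, against 3.61% of all windows. At so low a share, its absence from 8 windows carries little information. No window was available for SLC7A11, GSR or HMOX1, so neither motif was searched in them. Binding of NRF2 at the matches was not tested. The 3 stretches below show a match from each of the genes that held the core, GCLM, TXNRD1 and GPX2. Each is written 5′ to 3′ along the gene's strand, and the capitals mark the match, which reads on the reverse strand. The GCLM stretch is chr1:93909431-93909489 (minus strand), that of the downstream TXNRD1 start is chr12:104286905-104286963 (plus strand) and that of GPX2 is chr14:64942834-64942892 (minus strand).
GCLM: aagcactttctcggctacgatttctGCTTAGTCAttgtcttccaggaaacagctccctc
TXNRD1: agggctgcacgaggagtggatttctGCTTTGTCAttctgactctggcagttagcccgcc
GPX2: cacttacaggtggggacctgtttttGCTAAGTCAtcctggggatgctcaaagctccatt
The upstream TXNRD1 window held 2 further matches. The windows of GCLC, NQO1, ABCC2 and SRXN1 held none of these letters, which says nothing about elements elsewhere in those genes.

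The genes did not move as a block in either mutant. In D319N cells 2 of the 9 genes rose, SLC7A11 and TXNRD1, and 2 fell, ABCC2 and GSR (limma, adjusted p under 0.05 over all genes), while 5 did not pass. Of all genes tested, 8.93% rose and 7.66% fell in that comparison. In Y261A cells 2 of the 9 rose, SLC7A11 and GCLC, and none fell, with 5 of the 9 at an unadjusted p under 0.05. There 0.138% of all genes rose and 0.214% fell, and 10.4% had an unadjusted p under 0.05. Between the mutants, 2 of the 9 were lower in D319N than in Y261A cells, GCLC and ABCC2, and none was higher, with 6 of the 9 at an unadjusted p under 0.05. For that comparison 9.92% of all genes were called higher and 4.72% lower, and 34.4% had an unadjusted p under 0.05. The median log2 difference of the 9 genes was 0.09 in D319N and -0.03 in Y261A cells against vector, where the median of all genes was -0.03 and 0.00. Both mutant comparisons share the 3 vector arrays.

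In all, 5 of the 9 genes passed in at least 1 comparison and 4 passed in none. On every array all 9 genes lay above the mean of the background control rows, which was 4.85 on the log2 scale. Fewer cells of a kind and less RNA per cell cannot be told apart in such bulk samples.

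**Figure D1:**
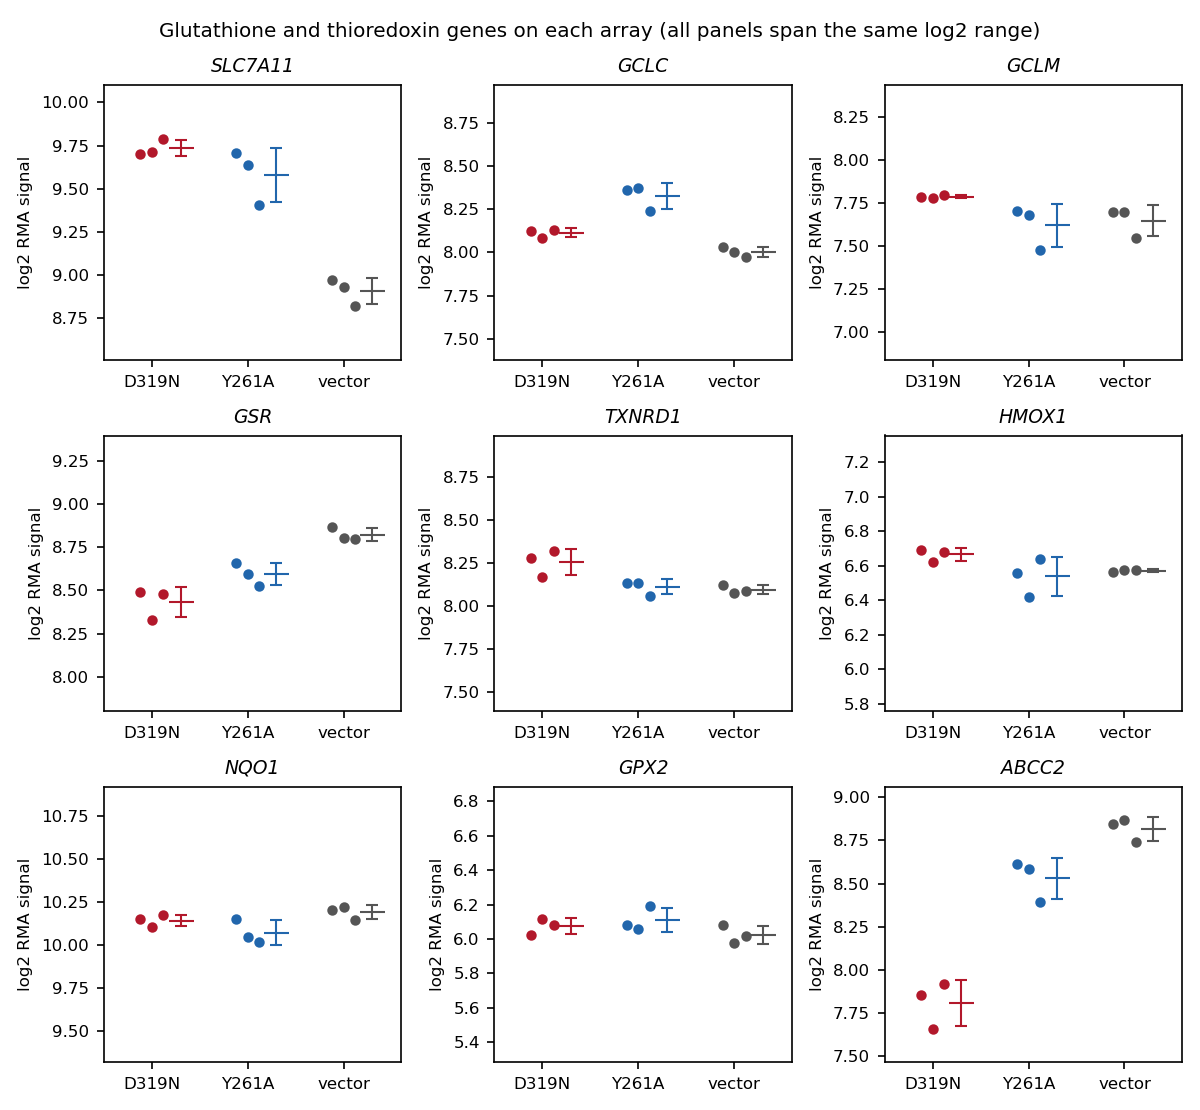
Log2 RMA signal of the 9 measured genes on each array (points, replicates 1 to 3 from left to right), with the mean and SD of each group of 3 beside them. Every panel spans the same range. SLC7A11 is high on all 6 mutant arrays, ABCC2 is lowest on the D319N arrays, and NQO1 and GPX2 overlap between all groups.

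Some arrays stood apart from their groups. D319N replicate 2 was the lowest array of its group for 7 of the 9 genes (37.1% of all genes) and Y261A replicate 3 for 7 of the 9 (34.8% of all genes). Over all genes they deviated in both directions: D319N replicate 2 was the highest of its group for 33.1% and Y261A replicate 3 for 39.2%. The deviations of these arrays from their group means correlated at 0.60 over all genes. Vector replicate 3 was the lowest of its group for 6 of the 9 (24.4% of all genes). The spread of a gene was narrowest in vector cells, with a median SD of 0.067 in D319N, 0.077 in Y261A and 0.036 in vector cells. Epithelial markers, among them KRT5, KRT18 and CDH1, were above the background mean in all groups for 8 of 8 measured. Of these, 6 fell in D319N cells, and their mean log2 level was 8.30 to 8.47 on the D319N arrays, 8.99 to 9.06 on the Y261A arrays and 9.17 to 9.28 on the vector arrays. Of 9 fibroblast markers, DCN and FAP rose in both mutants, and none of 7 leukocyte or 6 endothelial markers passed in either comparison with vector. The 9 fibroblast markers averaged 5.91 to 5.93 on D319N, 5.61 to 5.69 on Y261A and 5.48 to 5.49 on vector arrays, while the collagen gene COL1A1 was at 6.76 in all groups. The part of these shifts in the results that follow was not tested.

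SLC7A11, the cystine importer, was the gene of the set that rose in both mutants. It had log2 signals of 9.70, 9.71 and 9.79 on the D319N arrays, 9.70, 9.64 and 9.40 on the Y261A arrays and 8.97, 8.93 and 8.82 on the vector arrays. The 6 mutant arrays were all above the 3 vector arrays, while D319N and Y261A overlapped. The rise was 1.77-fold in D319N cells (log2 0.83 ± 0.08 SE, adjusted p = 0.000516 in limma), and this call held in all 9 fits without 1 array. In Y261A cells it was 1.60-fold (log2 0.67 ± 0.08 SE, adjusted p = 0.025 in limma). The Y261A call was kept without D319N replicate 2 or Y261A replicate 3 and lost without any of the other 7 arrays, with an adjusted p of 0.0507 to 0.138 and a log2 difference of at least 0.61. With the replicate number as a block the adjusted p was 0.114, in a fit of the 6 arrays compared 0.101 and with all rows adjusted together 0.0626. Between the mutants SLC7A11 differed by 0.15 on the log2 scale, with a 95% interval of -0.03 to 0.34 (adjusted p = 0.205 in limma), so a difference in either direction within that interval remains possible. Without D319N replicate 2 and Y261A replicate 3 the log2 differences from vector were 0.84 in D319N and 0.76 in Y261A cells.

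The ligase subunits differed in their pattern. GCLC, the catalytic subunit, had log2 signals of 8.13, 8.09 and 8.13 on the D319N arrays, 8.36, 8.37 and 8.24 on the Y261A arrays and 8.03, 8.0 and 7.97 on the vector arrays. No array of a group overlapped with another group, and the order was Y261A, D319N, vector from high to low. GCLC rose 1.25-fold in Y261A cells (log2 0.32 ± 0.04 SE, adjusted p = 0.0259 in limma). In D319N cells its log2 difference of 0.11 ± 0.04 SE did not pass over all genes (adjusted p = 0.0981 in limma), but it passed without Y261A replicate 3 (adjusted p = 0.014), without that array and D319N replicate 2 (0.00713), with array weights (0.00144) and in a fit of the 6 arrays compared (0.0339). The direct comparison put D319N below Y261A by 0.21 on the log2 scale (log2 -0.21 ± 0.04 SE, adjusted p = 0.0112 in limma), a call kept in all 9 fits without 1 array. It was lost when the arrays were centred on their medians (adjusted p = 0.114) and when tied genes were given a floor of spread (adjusted p = 0.105). The Y261A call against vector was kept without D319N replicate 2 or Y261A replicate 3 and lost without any of the other 7 arrays, with an adjusted p of 0.053 to 0.135. It was lost as well under the block (adjusted p = 0.12), with centring (0.141), in a fit of the 6 arrays compared (0.0984) and with all rows adjusted together (0.0877).

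GCLM, the modifier subunit that raises the efficiency of the ligase, did not pass in any comparison, except in D319N against vector with array weights (adjusted p = 0.028). It had log2 signals of 7.79, 7.78 and 7.80 on the D319N arrays, 7.70, 7.68 and 7.48 on the Y261A arrays and 7.70, 7.70 and 7.55 on the vector arrays. The D319N arrays lay above all others by a small margin, and Y261A and vector overlapped. The log2 difference in D319N cells was 0.14, with a 95% interval of -0.02 to 0.29 (adjusted p = 0.224 in limma), and in Y261A cells it was -0.03, with an interval of -0.18 to 0.13.

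**Figure D2:**
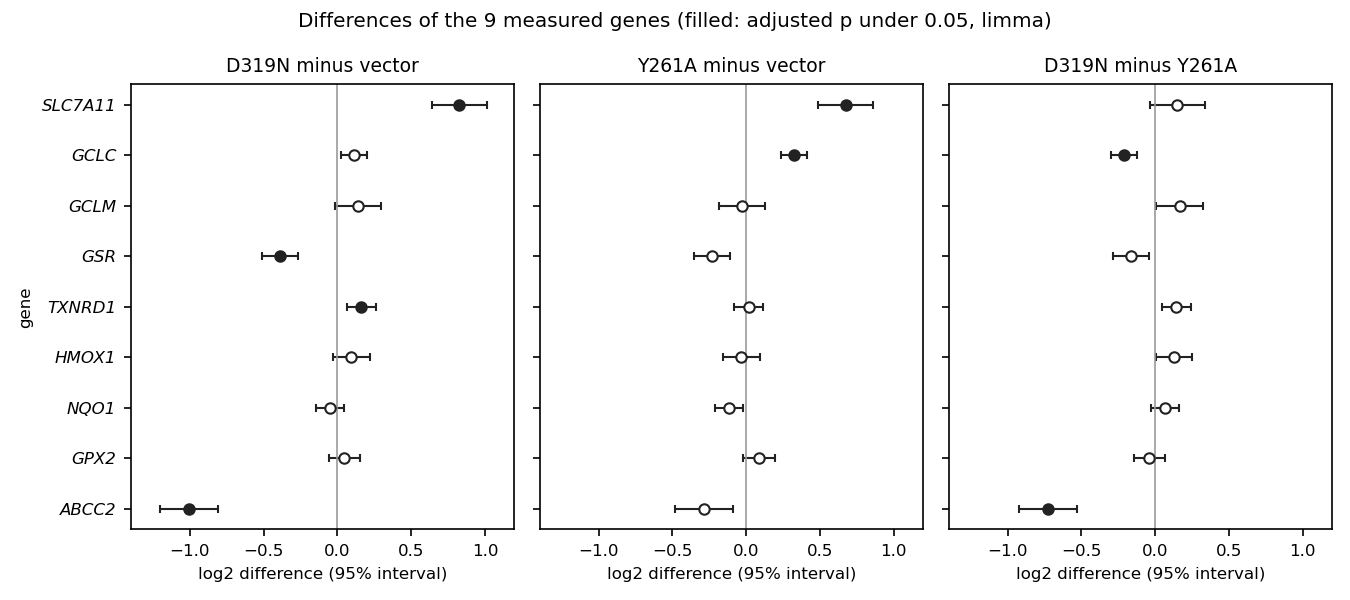
Log2 differences of the 9 measured genes with 95% intervals for D319N minus vector (left), Y261A minus vector (middle) and D319N minus Y261A (right). Filled points have an adjusted p under 0.05 over all genes in limma. SLC7A11 lies right of 0 in both comparisons with vector. ABCC2 lies furthest left in every panel, with an open point in Y261A minus vector.

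Of the pair of reductases, GSR fell and TXNRD1 rose in D319N cells. The TXNRD1 call was kept in only 8 of 20 alternative settings. GSR, which regenerates reduced glutathione, had log2 signals of 8.49, 8.33 and 8.48 on the D319N arrays, 8.66, 8.60 and 8.53 on the Y261A arrays and 8.87, 8.80 and 8.80 on the vector arrays. The 3 groups did not overlap, with D319N lowest and Y261A between. GSR fell 1.31-fold in D319N cells (log2 -0.39 ± 0.05 SE, adjusted p = 0.00228 in limma), a call kept in all 9 fits without 1 array and in the other 11 alternative settings. In Y261A cells the log2 difference was -0.23 ± 0.05 SE and did not pass (adjusted p = 0.19 in limma). D319N minus Y261A was -0.16, with a 95% interval of -0.28 to -0.04 (adjusted p = 0.085 in limma). That difference passed when the arrays were quantile-normalized again (log2 -0.29, adjusted p = 0.00046), with array weights (0.00542) and without D319N replicate 2 and Y261A replicate 3 (0.0316). The Y261A difference passed with array weights (adjusted p = 0.0222).

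TXNRD1, the cytosolic thioredoxin reductase, is a selenoprotein. It had log2 signals of 8.28, 8.17 and 8.32 on the D319N arrays, 8.14, 8.14 and 8.06 on the Y261A arrays and 8.12, 8.07 and 8.09 on the vector arrays. All D319N arrays were above the other 6, and Y261A and vector overlapped. The rise in D319N cells was 1.12-fold (log2 0.16 ± 0.04 SE, adjusted p = 0.04 in limma). This call was kept without D319N replicate 2 or Y261A replicate 3 and lost without any of the other 7 arrays (adjusted p of 0.0628 to 0.13). It was also lost under the block (adjusted p = 0.0791), with centred arrays (0.0744), in a fit of the 6 arrays compared (0.0782), with all rows adjusted together (0.0784) and with the floor of spread for tied genes (0.287). In Y261A cells the log2 difference was 0.02, with a 95% interval of -0.08 to 0.12. D319N minus Y261A had an interval of 0.05 to 0.24 and did not pass (adjusted p = 0.0621 in limma), although it did without D319N replicate 2 (adjusted p = 0.0111), without that array and Y261A replicate 3 (0.00717) and with array weights (0.00171).

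ABCC2, a pump that exports glutathione conjugates across apical membranes, had the largest difference of the 9 genes. It had log2 signals of 7.85, 7.66 and 7.92 on the D319N arrays, 8.62, 8.58 and 8.40 on the Y261A arrays and 8.85, 8.87 and 8.74 on the vector arrays. The 3 groups did not overlap, and D319N was set well below the others. ABCC2 fell 2.01-fold in D319N cells (log2 -1.01 ± 0.08 SE, adjusted p = 0.000278 in limma) and was 1.65-fold lower in D319N than in Y261A cells (log2 -0.72 ± 0.08 SE, adjusted p = 0.00173 in limma). Both calls held in all 20 alternative settings, with log2 differences of -1.06 to -0.93 from vector and -0.83 to -0.65 from Y261A. In Y261A cells the log2 difference from vector was -0.29 ± 0.08 SE and did not pass (adjusted p = 0.305 in limma), although its groups did not overlap, and it passed with array weights (0.026).

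The remaining 3 genes are widely used readouts of NRF2, and none passed in any comparison with all 9 arrays weighted equally. NQO1, which reduces quinones, had log2 signals of 10.15, 10.10 and 10.17 on the D319N arrays, 10.15, 10.05 and 10.02 on the Y261A arrays and 10.20, 10.22 and 10.15 on the vector arrays. Its groups overlapped throughout. The 95% interval of the log2 difference was -0.14 to 0.05 in D319N cells and -0.21 to -0.02 in Y261A cells (adjusted p = 0.381 in limma), so a rise of the size seen for SLC7A11 lies outside both. HMOX1, which degrades haem, had log2 signals of 6.69, 6.62 and 6.68 on the D319N arrays, 6.56, 6.42 and 6.64 on the Y261A arrays and 6.56, 6.58 and 6.58 on the vector arrays. The D319N arrays were above the vector arrays and overlapped with Y261A. Its log2 difference in D319N cells was 0.09, with an interval of -0.03 to 0.22 (adjusted p = 0.29 in limma), and it passed with array weights (0.0206). Between the mutants HMOX1 passed with array weights (adjusted p = 0.0072) and without D319N replicate 2 and Y261A replicate 3 (0.0361). GPX2, a glutathione peroxidase of epithelia, had log2 signals of 6.02, 6.11 and 6.08 on the D319N arrays, 6.08, 6.06 and 6.19 on the Y261A arrays and 6.08, 5.98 and 6.02 on the vector arrays. Its groups overlapped in every comparison, and its intervals were -0.06 to 0.15 in D319N and -0.02 to 0.19 in Y261A cells.

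Counting arrays that did not overlap gave a different balance. Against vector, 5 of the 9 genes were higher and 2 lower on all D319N arrays, where 15.1% and 16.9% of all genes were. Against vector, 2 were higher and 2 lower on all Y261A arrays, where 4.11% and 9.24% of all genes were. Between the mutants, 2 were higher and 3 lower on all D319N arrays, where 15.5% and 12.6% of all genes were.

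A wider list of 142 pathway genes, of which 128 were measured, likewise went both ways. It was chosen with earlier results of these data known, so its shares cannot be read as an excess over all genes. In D319N cells 17 of the 128 rose (13.3%) and 25 fell (19.5%), against 8.93% and 7.66% of all genes, with a median log2 difference of -0.02. In Y261A cells 2 rose and 2 fell (1.56% each), against 0.138% and 0.214% of all genes, with a median of -0.03. There 29 of the 128 had an unadjusted p under 0.05, against 10.4% of all genes. Between the mutants, 17 were higher (13.3%) and 13 lower (10.2%) in D319N cells, against 9.92% and 4.72% of all genes.

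**Figure D3:**
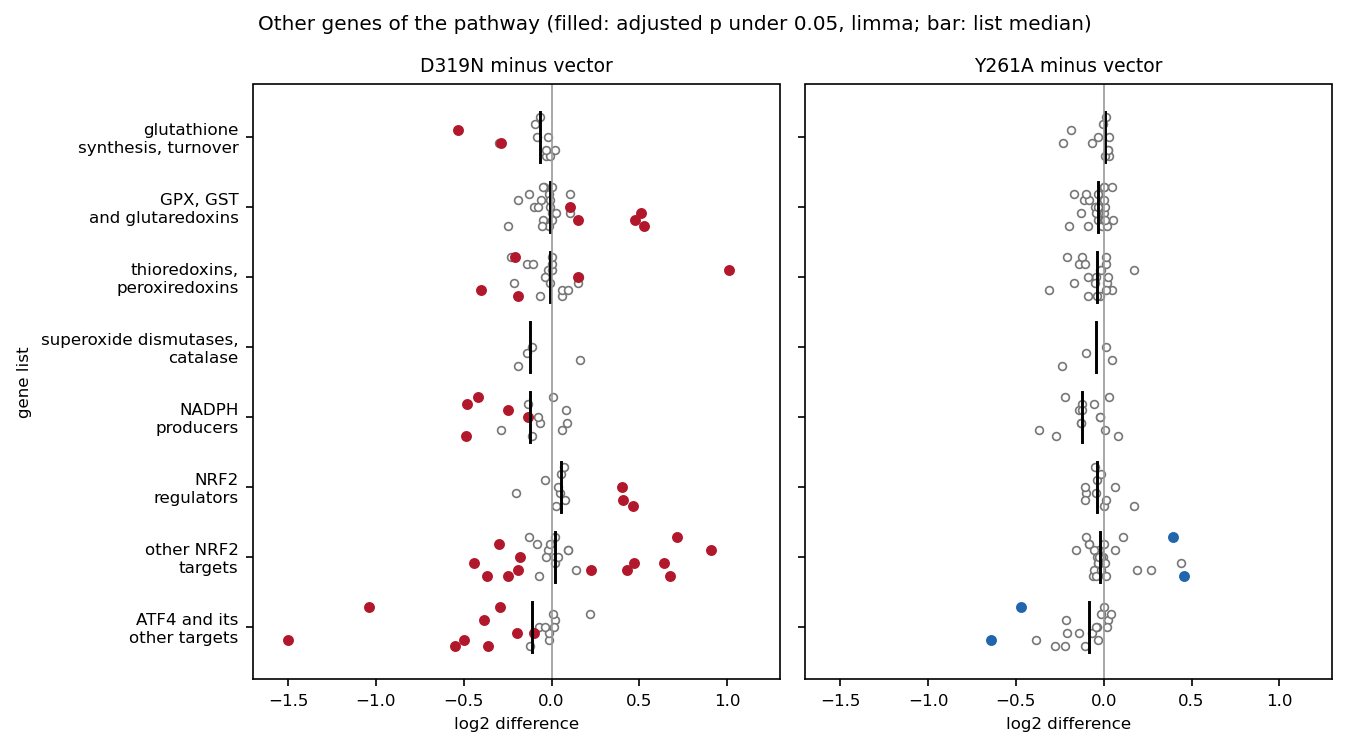
Log2 differences of the other pathway genes by list, for D319N minus vector (left) and Y261A minus vector (right). Each point is a gene, filled where its adjusted p is under 0.05 in limma, and the bar is the list's median. ATF4 targets and the list labelled NADPH producers have filled points to the left of 0 in D319N cells. The other NRF2 targets have them on both sides.

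Genes next to SLC7A11 and the ligase in the glutathione route were lower where they passed. Of 11 measured genes of glutathione synthesis and turnover, 2 fell in D319N cells and none rose, against 7.66% and 8.93% of all genes. SLC3A2, the heavy chain that brings SLC7A11 to the cell surface, averaged 9.31 in D319N and 9.60 in vector cells (log2 -0.29 ± 0.06 SE, adjusted p = 0.0179 in limma). In Y261A cells its log2 difference was -0.23 (adjusted p = 0.258 in limma). GGCT, which breaks down gamma-glutamyl peptides, averaged 6.26 in D319N and 6.79 in vector cells (log2 -0.53 ± 0.04 SE, adjusted p = 0.000196 in limma). Only 1 of this list was called without vector replicate 2 or vector replicate 3. GSS, the enzyme that completes glutathione, did not pass in D319N cells, at 7.72 in D319N and 7.73 in vector cells.

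Among 25 measured glutathione peroxidases, transferases and glutaredoxins, 5 rose in D319N cells and none fell, against 8.93% and 7.66% of all genes. None passed in Y261A cells, where 2 had an unadjusted p under 0.05, against 10.4% of all genes. GPX4, which reduces lipid hydroperoxides with glutathione, averaged 10.50 in D319N and 9.97 in vector cells (log2 0.52 ± 0.09 SE, adjusted p = 0.00752 in limma). The difference between the mutants passed as well (log2 0.61, adjusted p = 0.00495). GPX8, a peroxidase of the endoplasmic reticulum, rose by 0.51 and the glutaredoxin GLRX by 0.48 on the log2 scale. The other 2 were MGST1 and GSTO1, transferase family members with rises of 0.15 and 0.11. Leaving out 1 array gave 2 to 5 of this list that rose and 0 to 3 that fell, with 3 called in all without D319N replicate 1, D319N replicate 3, vector replicate 1 or vector replicate 2.

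Of 21 measured thioredoxins, peroxiredoxins and sestrins, 2 rose and 3 fell in D319N cells, against 8.93% and 7.66% of all genes. TXNIP, which binds and inhibits thioredoxin, averaged 9.98 in D319N, 9.15 in Y261A and 8.97 in vector cells and rose 2.01-fold in D319N cells (log2 1.01 ± 0.06 SE, adjusted p = 8.28e-05 in limma). Its partner TXN averaged 10.43 in D319N, 10.45 in Y261A and 10.43 in vector cells and did not pass. PRDX6, a peroxiredoxin that draws on glutathione, fell by 0.40 on the log2 scale in D319N cells (adjusted p = 0.00998 in limma), while PRDX1 averaged 11.05 in D319N and 11.07 in vector cells. PRDX4 and the mitochondrial TXN2 fell by 0.19 and 0.21, and MSRB3, a methionine sulfoxide reductase, rose by 0.15. Without D319N replicate 1, vector replicate 1 or vector replicate 2, 2 of this list rose and 1 fell. None of the 21 passed in Y261A cells in limma, and 4 had an unadjusted p under 0.05, against 10.4% of all genes. Of 4 superoxide dismutase and catalase genes none passed in any comparison in limma, and in D319N cells 2 had an unadjusted p under 0.05, against 28.5% of all genes. Without Y261A replicate 3, 1 of the 4 fell in D319N cells.

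In a list of enzymes around NADPH, the electron donor of GSR and TXNRD1, those that passed fell. Of 14 measured, 5 fell in D319N cells and none rose, against 7.66% and 8.93% of all genes. The median log2 difference was -0.12 in D319N and -0.12 in Y261A cells. The largest falls were those of the folate enzyme MTHFD2 (7.47 in D319N and 7.96 in vector cells, log2 -0.49 ± 0.06 SE) and malic enzyme ME2 (8.09 and 8.58, log2 -0.48 ± 0.06 SE). TKT, of the pentose phosphate pathway, fell by 0.42, ME1 by 0.25 and IDH2 by 0.13. The list is broader than NADPH production: TKT does not make NADPH itself, and MTHFD2 and ME2 also use NAD. PGD and IDH1, which make NADPH, did not pass in D319N cells (log2 -0.08 and -0.06). NADPH itself was not measured. No gene of this list passed in Y261A cells in limma, with 3 at an unadjusted p under 0.05, against 10.4% of all genes.

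NFE2L2 and KEAP1 did not pass in any comparison. NFE2L2, which encodes NRF2, averaged 8.79 in D319N, 8.61 in Y261A and 8.71 in vector cells (adjusted p = 0.351 for D319N and 0.555 for Y261A against vector, in limma). Between the mutants its log2 difference was 0.18 (adjusted p = 0.0558 in limma), and its D319N arrays lay above all Y261A and vector arrays. KEAP1 averaged 8.13 in D319N, 8.13 in Y261A and 8.17 in vector cells. Transcript levels do not report the NRF2 protein, which is set largely by its degradation. Of 11 genes measured in this list, 3 rose in D319N cells and none fell, against 8.93% and 7.66% of all genes. Those that rose were the related factor NFE2L1 (9.06 in D319N and 8.59 in vector cells, log2 0.46 ± 0.05 SE), the KEAP1-binding autophagy receptor SQSTM1 (9.05 and 8.65, log2 0.40 ± 0.05 SE) and the ubiquitin ligase subunit BTRC (7.15 and 6.74, log2 0.41 ± 0.08 SE). All 3 were also higher in D319N than in Y261A cells, with adjusted p-values of 0.0061, 0.00337 and 0.0204 in limma. Without D319N replicate 2, 5 of this list were called higher between the mutants.

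Other known NRF2 targets were divided. Of 26 measured, 7 rose and 6 fell in D319N cells, against 8.93% and 7.66% of all genes. UGDH, which makes UDP-glucuronate, rose most, by 0.91 on the log2 scale (8.68 in D319N and 7.77 in vector cells, adjusted p = 2.3e-05 in limma). The aldo-keto reductase genes AKR1C1 and AKR1C2 rose by 0.71 and 0.67 in D319N cells and by 0.40 and 0.46 in Y261A cells. They were the 2 of this list that passed in Y261A cells, where 0.138% of all genes rose. In Y261A cells only 1 of this list passed without Y261A replicate 1, Y261A replicate 2, vector replicate 1 or vector replicate 2. These genes are close copies of each other, so array signal can be shared between them. CYP4F11, ABCC3, which exports organic anions, AKR1C3 and CES1 rose by 0.64, 0.47, 0.43 and 0.22 in D319N cells. Those that fell were ALDH3A1, an aldehyde dehydrogenase (-0.44), ABCB6 (-0.37), AKR1B10 (-0.30), PIR (-0.25), SLC48A1 (-0.19) and ALDH3A2 (-0.18). In Y261A cells ALDH3A1 differed from vector by 0.01, and the difference between the mutants passed (log2 -0.45, adjusted p = 0.000744 in limma). The antioxidant response core lay in 7 of 28 promoter windows of this list, against 13.3% of all windows.

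**Figure D4:**
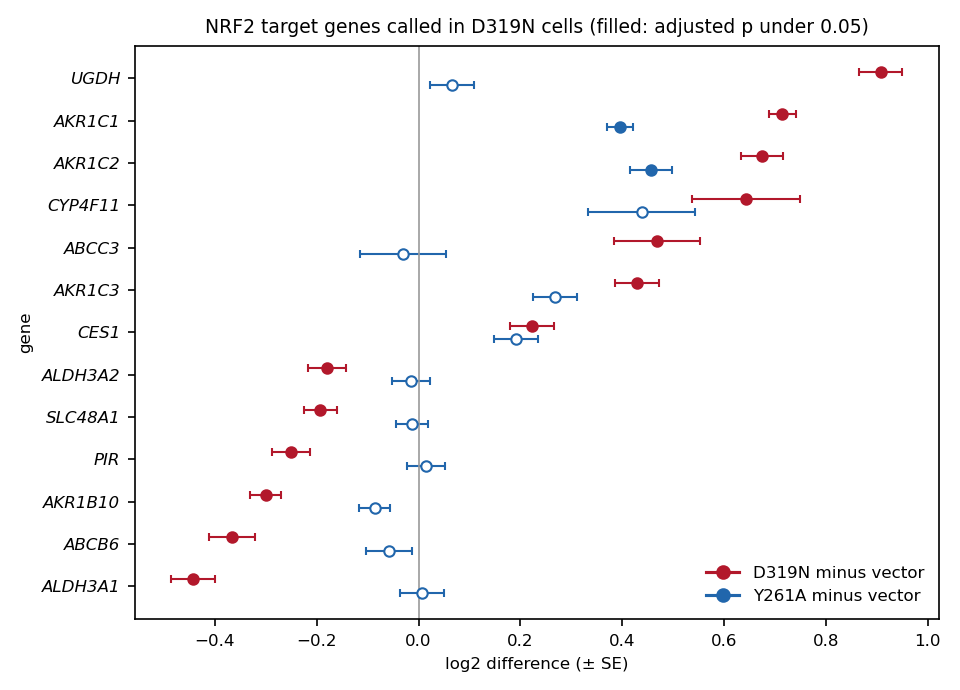
Log2 differences with their SE for the 13 other NRF2 targets that passed in D319N cells, for D319N minus vector (red) and Y261A minus vector (blue). Filled points have an adjusted p under 0.05 in limma. AKR1C1 and AKR1C2 are filled in both, and the 6 genes that fell in D319N cells are open in Y261A cells.

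Where other targets of ATF4 passed they fell, unlike SLC7A11. Of 18 measured genes, ATF4 included, 9 fell in D319N cells and none rose, against 7.66% and 8.93% of all genes. Leaving out 1 array gave 7 to 9 that fell and 0 to 1 that rose. DDIT3 was higher on all D319N arrays than on the vector arrays but did not pass (log2 0.22, adjusted p = 0.0663 in limma). In Y261A cells 2 fell, PSAT1 and DDIT4, against 0.214% of all genes. The count in Y261A cells was 0 without D319N replicate 1, any 1 of the 3 Y261A arrays, vector replicate 1 or vector replicate 2, and 1 without vector replicate 3. PSAT1, an enzyme of serine synthesis, averaged 7.81 in D319N, 8.67 in Y261A and 9.31 in vector cells and fell by 1.50 in D319N cells and by 0.64 in Y261A cells on the log2 scale (adjusted p = 2.55e-05 and 0.0225 in limma). DDIT4, an inhibitor of mTORC1, fell by 1.04 in D319N cells and by 0.47 in Y261A cells. ASNS, which makes asparagine, fell by 0.55 and the amino acid transporter SLC7A5 by 0.50 in D319N cells. ATF4 itself did not pass, at 9.16 in D319N, 8.97 in Y261A and 9.18 in vector cells. CHAC1, which degrades glutathione and is induced by ATF4, averaged 6.46 in D319N and 6.44 in vector cells and did not pass. The C/EBP-ATF element lay in 6 of 26 promoter windows of this list, against 3.61% of all windows.

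The genes nearest in pattern to the 2 members with the widest span of group means were found by the root mean square distance of their log2 values over the 9 arrays, each set to 0 at its own vector mean. For ABCC2, with a span of 1.01, they were HOOK1 (distance 0.055), OCLN (0.073), TMT1A (0.084), ZNF462 (0.086) and FABP5P7 (0.091). HOOK1 differed from vector by -0.996 in D319N and -0.22 in Y261A cells, against -1.01 and -0.29 for ABCC2. For SLC7A11, with a span of 0.83, RPGR was nearest (0.072), followed by AKR1C2 (0.166), ITGB6 (0.167), NMRAL2P (0.175) and GCNT1 (0.178). RPGR differed from vector by 0.86 in D319N and 0.60 in Y261A cells, against 0.83 and 0.67 for SLC7A11. Apart from RPGR, the neighbours of SLC7A11 were at least 0.166 away, farther than the fifth neighbour of ABCC2.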

How the data were processed

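The deposited values are log2 RMA signals, which the authors computed in Affymetrix Expression Console 1.4, per the submitters' processing notes. Precision is limited by there being 3 arrays a group. The array's genome build was not given in the sources used here. Of 70523 rows, 1530 were controls, 23781 had 1 gene symbol, 1543 several and 43669 none. Symbols were updated through a RefSeq table (306 changed, 4 not matched), and the row with the highest mean stood for each of 528 genes with several rows. No further normalization was applied. Promoter windows are RefSeq's, on GRCh38.p14.

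Group means were estimated from the 9 arrays together with limma 3.58.1 in R 4.3.3, which left 6 residual degrees of freedom, and eBayes found 1.23 prior degrees of freedom. P-values were adjusted by Benjamini-Hochberg over all 22411 genes, with 0.05 as the threshold for a call. The fit was tested on simulated data with noise drawn independently for each gene and array. That test does not cover tied values or arrays that deviate together. Errors of differences are moderated SEs. At least 2 arrays of a group had the same value in 63.4% of genes and in 2 of the 9 members, so some spreads may be understated. Members, gene lists, the rule for named genes and alternatives were chosen with earlier results of these data known. Named were all members, called genes of the lists with the smallest p first, a few fixed regulators and partners, and the 5 nearest genes in pattern of 2 members. GSS, CHAC1, PGD, IDH1, DDIT3 and the markers were named outside this rule. Of the fixed names, BACH1 was not analysed here, and some items are not reported here.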

Additional observations from a re-analysis of the deposited data

How the results depend on the processing

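Over 27 member comparisons, 15 kept the same side of the threshold in all 20 alternative settings. Of the 8 that passed, 4 passed in all of them: SLC7A11, GSR and ABCC2 in D319N against vector, and ABCC2 between the mutants. No call changed direction. Leaving out 1 array gave 3 to 5 called members for D319N against vector (4 with all arrays), 0 to 2 for Y261A against vector (2) and 2 to 3 between the mutants (2). Over all genes the range was 2523 to 4572 (3718), 9 to 133 (79) and 1941 to 5302 (3281). Over the other pathway genes it was 32 to 46 (42), 1 to 7 (4) and 24 to 40 (30).

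For Y261A against vector, no member passed in limma with the replicate block, in a fit of the 6 arrays compared or with all rows adjusted together, and 1 passed with centred arrays. With array weights 7 members passed in D319N against vector, 4 in Y261A against vector and 5 between the mutants. Between the mutants 1 passed with centred arrays, 1 with the floor for tied genes, and 5 without D319N replicate 2 and Y261A replicate 3. All genes called in Y261A against vector were 13 with the replicate block, 45 centred, 134 quantile-normalized, 988 with array weights, 19 with all rows, 293 with the floor and 157 without those 2 arrays. Array weights called 11631 genes in D319N against vector and 10403 between the mutants, and leaving out those 2 arrays called 7979 and 6259. Between the mutants the fit of 6 arrays called 1933. Of the other pathway genes in Y261A against vector, 1 was called with the block, 7 quantile-normalized, 20 with array weights, 2 with all rows, 7 with the floor and 7 without the 2 arrays. With array weights 79 were called in D319N against vector and 64 between the mutants, where quantile normalization called 47. The cause of these shifts was not tested. Higher calls made up 39.2% of calls in Y261A against vector (58.2% quantile-normalized) and 67.8% between the mutants (77.9% centred, 55.0% quantile-normalized).

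Arrays of different groups with the same replicate number deviated together at r = -0.45 to 0.21 over 9 pairs. For arrays with different numbers the range was -0.48 to 0.60 over 18 pairs. These correlations cannot settle whether the replicates were handled in matched sets, and no label says so. The block is therefore given as an alternative only. Beside the calls named with the results, the block changed the call of no other member.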
